A study of Mus musculus with 6 samples.

Results

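The genes described here are 43 genes of growth factor, mTOR and Hippo signalling, looked up by symbol in the array annotation. The list was drawn up with earlier results of these data known. Of the 43 genes, 39 have a row among the 19505 genes tested. The expression of the other 4, Areg, H19, Rps6kb1 and Stk3, is not analysed here. RNA came from whole livers of male C57BL/6 mice aged 8 weeks, 3 wild type (WT) and 3 labelled HMGB2-KO, with 1 Clariom S array per liver. The labels name no surgery or other treatment for any of the 6, and they do not say which part of Hmgb2 was deleted or in which cells. The comparison asks which genes go with the expression of Hmgb2, which encodes a DNA-bending chromatin protein, in a series titled for cell proliferation and hepatocyte size in regenerating liver.

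The Hippo pathway is a kinase relay that restrains organ size, and its loss in mouse liver gives marked overgrowth. MST kinases (Stk3 and Stk4) with their partner SAV1 activate LATS kinases with MOB1, and LATS phosphorylates the coactivators YAP (Yap1) and TAZ (Wwtr1) so that they leave the nucleus. Nuclear YAP and TAZ bind TEAD factors and switch on genes such as Ankrd1 and Axl. Hepatocyte growth factor, made mainly by stellate and endothelial cells, and ligands of the EGF receptor are the main mitogens of hepatocytes after loss of liver mass, while AKT and mTOR complexes couple growth factors and nutrients to protein synthesis and cell size.

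Each value is a log2 difference from an unstated baseline of its row, with the median of every array set to 0. Values can be compared between livers, but no level in absolute terms can be given, nor one gene's level against another's, and whether a gene was above background in liver cannot be read from them. Hmgb2 itself was lower in every HMGB2-KO liver than in any WT liver, with a log2 difference of -0.89 (SE 0.13). Its limma adjusted p was 0.645, so Hmgb2 did not pass the adjusted threshold either. The array of WT replicate 2 stood apart: its median before centring was 0.26 against -0.05 to 0.01 on the others, and 132 of its rows lay more than 2 log2 below every other array, against 4 to 33 on the others. After centring, the 1414 rows of olfactory and vomeronasal genes still had a median of 0.28 on it, against -0.07 to 0.00 on the others. Centring thus did not bring all kinds of rows on this array level with the other arrays. The bearing of this on single members was not tested. For Wwtr1, Ankrd1, Egf, Hbegf, Igf1r, Afp, Mtor, Rptor, Akt1, Tead4 and some lists the value without WT replicate 2 is given too. The values as deposited, with no centring, lower every difference by 0.12. In limma, 0.0% of the 19505 genes passed an adjusted p of 0.05 between genotypes.

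None of the 39 measured members passed the adjusted threshold in limma, and the smallest adjusted p among them was 0.994. Of the 39, 25 had a higher mean in HMGB2-KO and 14 a lower one, with a median log2 difference of 0.04, against 49.5% higher and a median of -0.00 over all genes. As deposited, 12 of the 39 were higher and their median was -0.08, against -0.12 for all genes. An unadjusted p under 0.05 was found for 1 member, or 2.56%, against 3.68% of all genes. That member was higher, where 1.06% of all genes were called higher and 2.61% lower. A p under 0.1 was found for 3 members, or 7.69%, against 8.57% of all genes. The values of the genotypes did not overlap for 2 members, or 5.13%, against 9.67% of all genes; both were higher, where 4.32% of all genes separated upward and 5.35% downward. The shares without regard to direction were below those of the whole array. The median absolute difference was 0.10 over the members and 0.12 over all genes, and the spread within a genotype was alike too, with a median SD of 0.19 for each. The 95% interval of a member reached 0.36 to either side at the median. Differences smaller than that were not separable from 0 in a typical member with 3 livers per genotype.

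**Figure D1:**
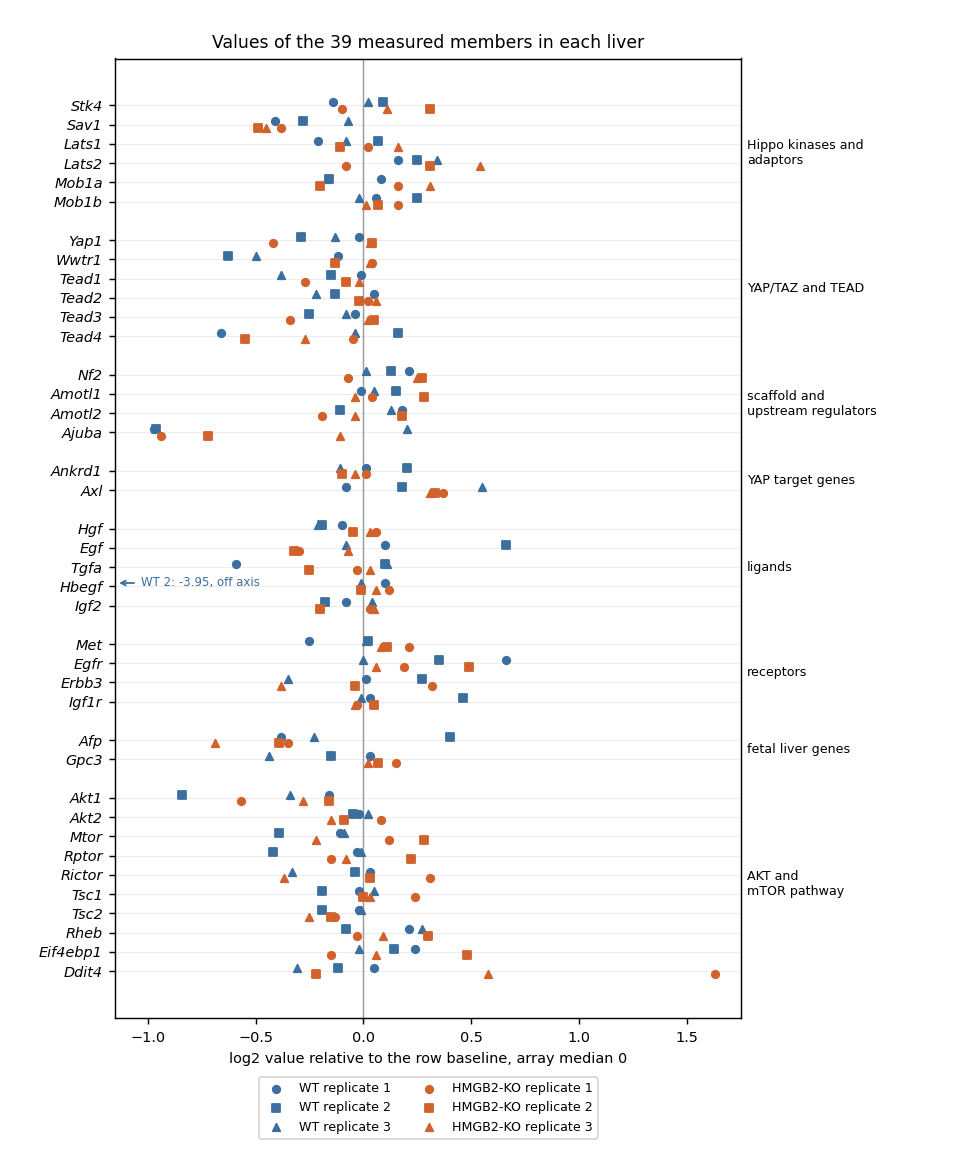
Log2 values of the 39 measured members in each of the 6 livers, relative to each row's baseline after centring, ordered by role; blue is WT, orange HMGB2-KO, and the shape gives the replicate. Most members lie within 0.5 of the baseline and the colours mix, Ajuba splits by replicate number, and Hbegf in WT replicate 2 lies off the axis at -3.95.

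Among the coactivators at the end of the Hippo relay, Wwtr1, which encodes TAZ, had the smallest p of all members. It was at -0.12, -0.63 and -0.50 in WT (replicates 1, 2 and 3, the order used throughout) against 0.04, -0.13 and 0.03 in HMGB2-KO. The HMGB2-KO livers lay close together near the baseline, and WT replicate 1 fell within their range. The log2 difference was 0.40 (SE 0.16, 95% interval 0.03 to 0.77), with a limma p of 0.0388 before adjustment and 0.994 after it over all genes. The exact permutation p was 0.2, where 0.1 is the smallest that 3 against 3 livers allow. With 1 liver left out the difference was smallest at 0.29, when WT replicate 2 was dropped, and largest at 0.55, when WT replicate 1 was, and as deposited it was 0.28.

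The paralog Yap1, which encodes YAP, was at -0.02, -0.29 and -0.13 in the WT livers and at -0.42, 0.04 and 0.03 in the HMGB2-KO livers. HMGB2-KO replicate 1 had the lowest value of all, and the genotypes overlapped throughout, with a difference of 0.03 (SE 0.16, 95% interval -0.35 to 0.41) whose sign turned in the values as deposited (-0.09). Since both genes are read on the same array, their difference within an array does not depend on the centring. Wwtr1 minus Yap1 was -0.10, -0.35 and -0.37 in WT and 0.46, -0.17 and 0.00 in HMGB2-KO, a change of 0.37 (SE 0.21, exact permutation p = 0.2), or 0.19 without HMGB2-KO replicate 1. The groups overlapped through HMGB2-KO replicate 2, so an unequal response of the paralogs was not separated from the spread between livers.

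The TEAD factors, which carry YAP and TAZ to DNA, showed small differences. These were 0.06 (SE 0.15) for Tead1, 0.12 (SE 0.12) for Tead2, 0.03 (SE 0.15) for Tead3 and -0.11 (SE 0.23) for Tead4, and all 4 overlapped between genotypes. Tead4 varied most, from -0.66 in WT replicate 1 to 0.16 in WT replicate 2, which puts its SD within genotype at percentile 87.1 of all genes, and its difference was 0.06 without WT replicate 2. Of these 4, only Tead2 kept its sign as deposited, in quantile-normalized values, within animals 38 to 41 and with any 1 liver left out, and there it came down to 0.00 as deposited.

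TEAD factors recognise a short core, and the promoter windows of the members were searched for its letters, CATTCC, on both strands (GGAATG on the printed strand). RefSeq windows of build GRCm38.p6, each 300 bases from 250 before to 50 after a gene's start, were found for 36 of the 43 members. The letters occur in 12 of these 36 genes (33.3%), against 16.6% of the 27025 genes with a window, and in 34.0% of the 50 windows of members against 14.7% of all 32851 windows. Windows of 1 gene can overlap, so they are not separate observations. The 12 genes are Ajuba, Akt2, Amotl2, Ankrd1, Axl, Igf2, Lats2, Mob1a, Sav1, Tead3, Wwtr1 and Yap1, of which all but Akt2 and Igf2 belong to the Hippo pathway or its targets. The windows of 4 of them are printed here, with the matched letters in capitals: both coactivators, the classic target Ankrd1, and Ajuba, which varied most between livers among the Hippo genes.
Wwtr1 (chr3:57575861-57576160, minus strand): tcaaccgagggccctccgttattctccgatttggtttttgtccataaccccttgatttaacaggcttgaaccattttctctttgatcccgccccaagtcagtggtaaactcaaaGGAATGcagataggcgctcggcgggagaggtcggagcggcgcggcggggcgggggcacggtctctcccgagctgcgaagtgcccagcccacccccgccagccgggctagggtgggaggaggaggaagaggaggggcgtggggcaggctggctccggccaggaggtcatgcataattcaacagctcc
Yap1 (chr9:8004547-8004846, minus strand): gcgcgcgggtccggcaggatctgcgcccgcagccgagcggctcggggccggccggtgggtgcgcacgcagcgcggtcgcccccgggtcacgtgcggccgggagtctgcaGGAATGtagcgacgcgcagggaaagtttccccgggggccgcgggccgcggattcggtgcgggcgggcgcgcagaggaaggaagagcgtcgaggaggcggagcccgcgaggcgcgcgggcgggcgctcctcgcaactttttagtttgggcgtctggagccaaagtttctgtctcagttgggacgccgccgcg
Ankrd1 (chr19:36119795-36120094, minus strand): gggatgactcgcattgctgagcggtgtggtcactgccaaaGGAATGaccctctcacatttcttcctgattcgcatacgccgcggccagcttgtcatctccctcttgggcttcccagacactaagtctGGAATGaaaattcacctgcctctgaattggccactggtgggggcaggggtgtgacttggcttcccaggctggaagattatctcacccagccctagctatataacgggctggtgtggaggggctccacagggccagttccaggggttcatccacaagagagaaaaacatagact
Ajuba (chr14:54577612-54577911, minus strand): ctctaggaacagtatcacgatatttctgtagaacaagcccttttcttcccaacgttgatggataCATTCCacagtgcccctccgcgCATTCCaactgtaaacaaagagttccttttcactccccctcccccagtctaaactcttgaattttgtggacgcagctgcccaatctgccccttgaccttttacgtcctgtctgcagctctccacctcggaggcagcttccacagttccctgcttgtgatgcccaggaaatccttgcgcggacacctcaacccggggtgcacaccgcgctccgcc
The match begins 136 bases before the start in Wwtr1 and 141 before it in Yap1. Ankrd1 holds 2 matches, 210 and 123 bases before the start, and Ajuba 2, at 186 and 164 bases, while 1.36% of all windows hold 2 or more. A match of 6 letters is a description of the sequence and not a binding site. All 12 genes with a match were measured, and their median log2 difference between genotypes was 0.02, with 7 of 12 higher, against 0.10 and 15 of 22 among the measured members whose windows lack it.

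The kinases and adaptors that restrain YAP and TAZ lay close to no difference. The 6 measured genes ranged from -0.19 (Sav1, SE 0.13) to 0.18 (Mob1a, SE 0.16), with 4 higher, or 2 as deposited, and 0 with an unadjusted p under 0.05. Sav1, the scaffold of the MST kinases, was at -0.41, -0.28 and -0.07 in WT and at -0.38, -0.49 and -0.45 in HMGB2-KO. WT replicate 1 lay within the HMGB2-KO range. The genotypes did not overlap in the values as deposited, at a difference of -0.31, or with WT replicate 1 left out, at -0.27. On the deposited scale, where every difference is lower by 0.12, Afp (-0.52) and Tsc2 (-0.22) did not overlap either. With WT replicate 1 left out, 19.9% of all genes did not overlap. Stk4, the MST1 kinase, had a difference of 0.12 (SE 0.15), or 0.00 as deposited. The kinases Lats1 and Lats2 were at 0.10 (SE 0.14) and 0.01 (SE 0.17). Lats1 minus Lats2 changed by 0.09 (SE 0.18), within the spread.

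Of the upstream scaffolds, Nf2 (the membrane protein merlin), Amotl1 and Amotl2 (angiomotin-like proteins that hold YAP at junctions) had differences of 0.04 (SE 0.14), 0.03 (SE 0.13) and -0.08 (SE 0.15), the first 2 below 0 as deposited. Ajuba, a LIM protein that inhibits LATS kinases, differed by -0.01 (SE 0.35) between genotypes, yet it varied more than 95.6% of all genes within them. Its values were -0.97, -0.96 and 0.20 in WT, against -0.94, -0.72 and -0.11 in HMGB2-KO. Both livers numbered 3 were high and the other 4 low, with no overlap.

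The YAP targets among the members did not differ beyond their error. Ankrd1, a muscle ankyrin repeat protein used as a readout of YAP, was at 0.01, 0.20 and -0.11 in WT and 0.01, -0.10 and -0.04 in HMGB2-KO, a difference of -0.07 (SE 0.13, 95% interval -0.37 to 0.23). Its sign turned without WT replicate 2 (0.01). Axl, a receptor tyrosine kinase that in liver is also made by macrophages, was at 0.37, 0.33 and 0.31 in HMGB2-KO, while the WT livers spread from -0.08 to 0.55 around them, and its difference was 0.12 (SE 0.17), or -0.00 as deposited. Of 23 further YAP targets measured, 13 were higher and 10 lower, with a median of 0.09, or -0.03 as deposited and 0.00 without WT replicate 2, and 0 had an unadjusted p under 0.05. The 29 further Hippo genes measured, such as angiomotin, MAP4K kinases and Fat cadherins, split into 17 higher and 12 lower, with a median of 0.03 (-0.09 as deposited) and again 0 with an unadjusted p under 0.05.

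**Figure D2:**
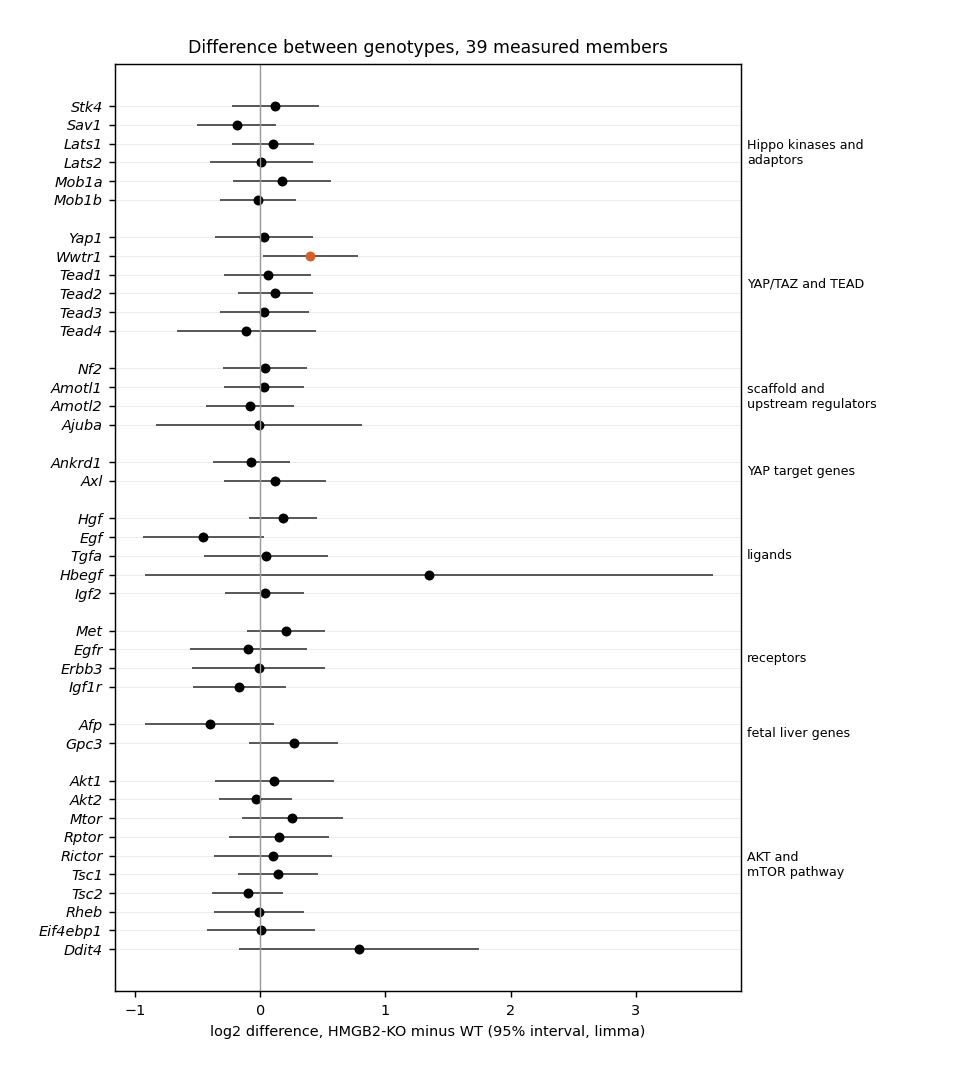
Log2 difference of each measured member between HMGB2-KO and WT with its 95% interval from limma, ordered by role, with 3 livers per genotype. The interval of 38 of the 39 members holds 0; that of Wwtr1, drawn in orange, runs from 0.03 to 0.77, and that of Hbegf is the widest.

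The pair of hepatocyte growth factor and its receptor gave the members whose genotypes did not overlap. Hgf was at -0.10, -0.19 and -0.21 in the WT livers and at 0.06, -0.05 and 0.03 in the HMGB2-KO livers. All HMGB2-KO values lay above all WT values, and the spread was small, with an SD within genotype at percentile 1.70 of all genes. The difference was 0.18 (SE 0.11, 95% interval -0.09 to 0.45, limma adjusted p = 0.994), and it lay between 0.16 and 0.21 with 1 liver left out. Met, the HGF receptor kinase, was at -0.25, 0.02 and 0.01 in WT and at 0.21, 0.11 and 0.08 in HMGB2-KO, again without overlap. Its difference was 0.21 (SE 0.13, limma adjusted p = 0.994), or 0.12 without WT replicate 1.

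For each of Hgf and Met the exact permutation p was 0.1, the smallest possible here. Lack of overlap by itself gives this p, so it adds nothing to the separation. Such a separation upward was seen in 4.32% of all genes. As deposited, Hgf was at 0.06 and Met at 0.09, and in both the genotypes overlapped. Hgf minus Met, which is free of the centring, changed by -0.03 (SE 0.13), less than its error.

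Egf, the founding ligand of the EGF receptor, had the second smallest p of the members. It was at 0.10, 0.66 and -0.08 in WT and at -0.30, -0.32 and -0.07 in HMGB2-KO. The lowest WT liver lay just below the highest HMGB2-KO liver, and WT replicate 2 was far above the rest. The difference was -0.46 (SE 0.20, 95% interval -0.93 to 0.02), with a limma p of 0.0576 before adjustment and 0.994 after it, and it came down to -0.24 without WT replicate 2. Its receptor Egfr was at 0.66, 0.35 and 0.00 in WT and at 0.19, 0.49 and 0.06 in HMGB2-KO, a difference of -0.10 (SE 0.20). Egf minus Egfr changed by -0.36 (SE 0.32, exact permutation p = 0.4), or by -0.15 without WT replicate 2 and -0.59 without WT replicate 1.

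The remaining EGF receptor ligands and Erbb3 had differences near 0 or made by 1 array. Tgfa was at 0.05 (SE 0.21), or -0.07 as deposited, and the kinase-impaired receptor Erbb3 at -0.01 (SE 0.22). Hbegf, the heparin-binding ligand, had a difference of 1.35 (SE 0.97) made by a single array. It was at -3.95 in WT replicate 2, between -0.01 and 0.12 in the other 5 livers, and without WT replicate 2 the difference was 0.02. That array's Hbegf row is among the 132 lying more than 2 log2 below every other array.

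In the insulin-like growth factor branch, Igf2, a fetal growth factor that is shut off in mouse liver after birth, was at -0.08, -0.18 and 0.04 in WT and 0.03, -0.20 and 0.05 in HMGB2-KO, a difference of 0.04 (SE 0.13), or -0.08 as deposited. Igf1r, the receptor of both IGFs, was at 0.03, 0.46 and -0.01 in WT and -0.03, 0.05 and -0.04 in HMGB2-KO. Only WT replicate 2 stood out, and the difference of -0.17 (SE 0.16) shrank to -0.02 without it. Of 35 further genes of EGF, HGF and IGF signalling, 22 were higher, 13 were lower and the median was 0.05, or -0.07 as deposited. An unadjusted limma p under 0.05 was found for 1 higher and 1 lower gene of the 35, against 1.06% and 2.61% of all genes. The higher one was Irs2, an insulin receptor substrate, at 0.46 (SE 0.16). The lower one was Spry2, a feedback inhibitor of receptor tyrosine kinase signalling, at -0.29 (SE 0.12). Both had an adjusted p of 0.994. Spry2 was at 0.23, 0.05 and 0.20 in WT and at -0.24, -0.15 and -0.02 in HMGB2-KO, so the genotypes did not overlap. Of the 35, 2 separated upward and 1 downward, where 4.32% and 5.35% of all genes did.

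**Figure D3:**
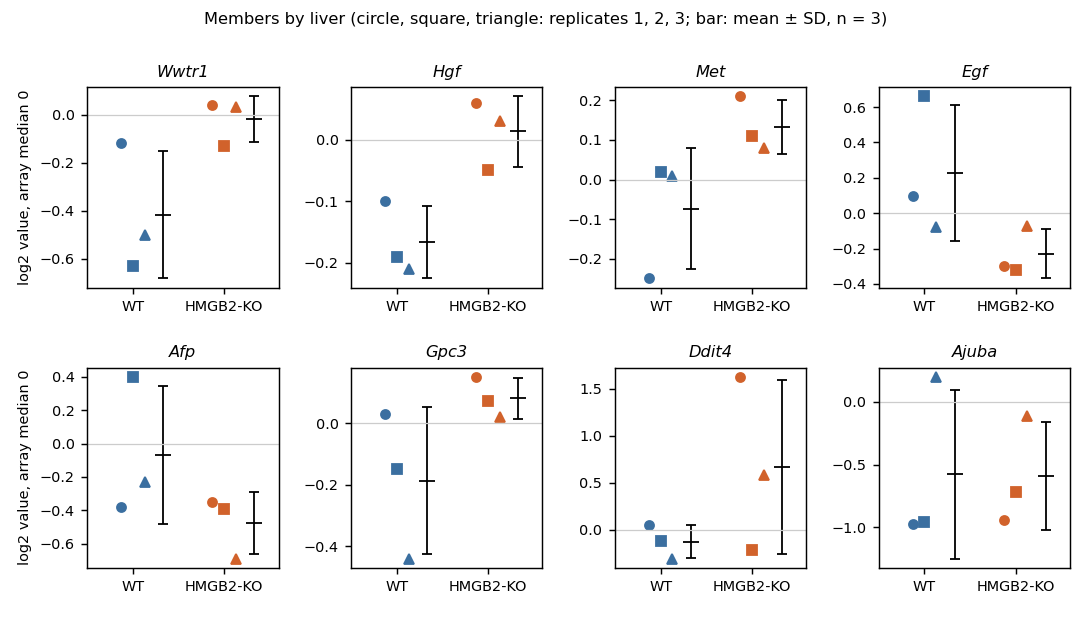
Log2 values relative to the row baseline, after centring, of 8 members in the 3 WT and 3 HMGB2-KO livers, each panel on its own axis; shapes give replicates 1 to 3 and bars the mean ± SD (n = 3). Hgf and Met separate by genotype, Egf and Afp are high in WT replicate 2, Ddit4 is high in HMGB2-KO replicates 1 and 3, and Ajuba separates by replicate number.

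Afp and Gpc3 are genes of fetal liver that reappear in liver tumours and regenerating liver, and their differences had opposite signs. Afp, alpha-fetoprotein, was at -0.38, 0.40 and -0.23 in WT and at -0.35, -0.39 and -0.69 in HMGB2-KO. WT replicate 2 was high, and the lowest value was that of HMGB2-KO replicate 3. The difference of -0.41 (SE 0.22, limma adjusted p = 0.994) became -0.17 without WT replicate 2. Gpc3, the heparan sulfate proteoglycan glypican-3, was at 0.03, -0.15 and -0.44 in WT and at 0.15, 0.07 and 0.02 in HMGB2-KO, a difference of 0.27 (SE 0.15). Its genotypes overlapped by WT replicate 1 alone, and the difference was 0.14 without WT replicate 3.

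Afp minus Gpc3 within an array was -0.41, 0.55 and 0.21 in WT and -0.50, -0.46 and -0.71 in HMGB2-KO. The groups did not overlap, and the change was -0.67 (SE 0.29, exact permutation p = 0.1, or 0.8 adjusted over the 16 pairs compared). It lay between -0.94 and -0.46 with 1 liver left out. Zhx2, a repressor that silences both genes after birth, was at 0.13 (SE 0.14). Of 12 further genes of fetal liver measured, 8 were higher, with a median of 0.17, or 0.06 as deposited, and Mest, an imprinted gene, was at 0.48 (SE 0.18, limma adjusted p = 0.994). Its values of -0.10, -0.10 and 0.24 in WT lay below 0.44, 0.25 and 0.79 in HMGB2-KO. The genotypes nearly touched, at 0.24 in WT replicate 3 and 0.25 in HMGB2-KO replicate 2. Replicate 3 was the highest liver of each genotype. With genotype as a term in limma, Mest was higher in animals 31 and 32, the livers numbered 3, by 0.39 (SE 0.13, adjusted p = 0.486). Mest was the 1 gene of the 12 without overlap, against 9.67% of all genes. It was also the 1 with an unadjusted limma p under 0.05, against 3.68% of all genes.

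In the AKT and mTOR pathway, 7 of 10 measured members were higher and 3 lower, with a median of 0.11, while as deposited 4 were higher and the median was -0.01. Mtor, the kinase itself, was at -0.11, -0.39 and -0.09 in WT and at 0.12, 0.28 and -0.22 in HMGB2-KO, a difference of 0.26 (SE 0.17) with overlap through HMGB2-KO replicate 3. It was 0.16 without WT replicate 2, 0.15 when HMGB2-KO replicate 2 was left out, 0.40 when HMGB2-KO replicate 3 was, and 0.45 within animals 38 to 41. Rptor, which defines complex 1, was at -0.03, -0.42 and -0.01 in WT and -0.15, 0.22 and -0.08 in HMGB2-KO. Its difference of 0.15 (SE 0.17) was 0.02 without WT replicate 2. Rictor, which defines complex 2, was at 0.03, -0.04 and -0.33 in WT and 0.31, 0.03 and -0.37 in HMGB2-KO, a difference of 0.10 (SE 0.20). Both livers numbered 3 were the lowest for Rictor, whatever their genotype.

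The kinase Akt1 was at -0.16, -0.84 and -0.34 in WT and -0.57, -0.16 and -0.28 in HMGB2-KO, a difference of 0.11 (SE 0.20) that was -0.08 without WT replicate 2. Akt2, the main AKT of insulin signalling in liver, was at -0.04 (SE 0.12). Rheb, the GTPase that switches on complex 1, and Eif4ebp1, the translation repressor that complex 1 inactivates, were at -0.01 (SE 0.15) and 0.01 (SE 0.18). Each of these 4 changed sign with some liver left out.

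Tsc1 and Tsc2 encode the partners of the complex that turns Rheb off. Their single differences were 0.14 (SE 0.13) and -0.10 (SE 0.12), and the 95% interval of each holds 0. Tsc1 minus Tsc2 within an array was 0.00, 0.00 and 0.06 in WT and 0.37, 0.14 and 0.28 in HMGB2-KO. The genotypes did not overlap, and the change was 0.24 (SE 0.07, exact permutation p = 0.1, adjusted over the pairs 0.8), between 0.19 and 0.30 with 1 liver left out. Among the 16 pairs this one and Afp with Gpc3 were those without overlap, while 9.67% of all genes taken singly did not overlap. The share over other pairs of genes was not computed. The exact permutation test gives 0.1 to any pair without overlap and cannot go below it with these livers. So no pair could pass 0.05 by it, and the pairs were listed with earlier results of these data known.

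Ddit4, which encodes REDD1, an inhibitor of complex 1 induced by hypoxia, DNA damage and glucocorticoids, spread most within the pathway. It was at 0.05, -0.12 and -0.31 in WT and at 1.63, -0.22 and 0.58 in HMGB2-KO. HMGB2-KO replicates 1 and 3 lay above all other livers, while replicate 2 lay inside the WT range. The difference was 0.79 (SE 0.41, 95% interval -0.16 to 1.74, limma adjusted p = 0.994). It was 0.31 without HMGB2-KO replicate 1, and 1.23 when replicate 2 was left out instead. Of 41 further PI3K and mTOR genes, 23 were higher and 18 lower, with a median of 0.03, or -0.03 without WT replicate 2 and -0.09 as deposited. Grb10, an adaptor that restrains insulin and IGF receptors and a substrate of mTOR, was at -0.57, -0.20 and -0.08 in WT and 0.04, 0.16 and 0.04 in HMGB2-KO, a difference of 0.36 (SE 0.16, limma adjusted p = 0.994) without overlap. It was the 1 gene of the 41 with an unadjusted limma p under 0.05, against 3.68% of all genes. The genotypes did not overlap for 4 of the 41, all higher, against 9.67% of all genes in either direction and 4.32% upward.

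**Figure D4:**
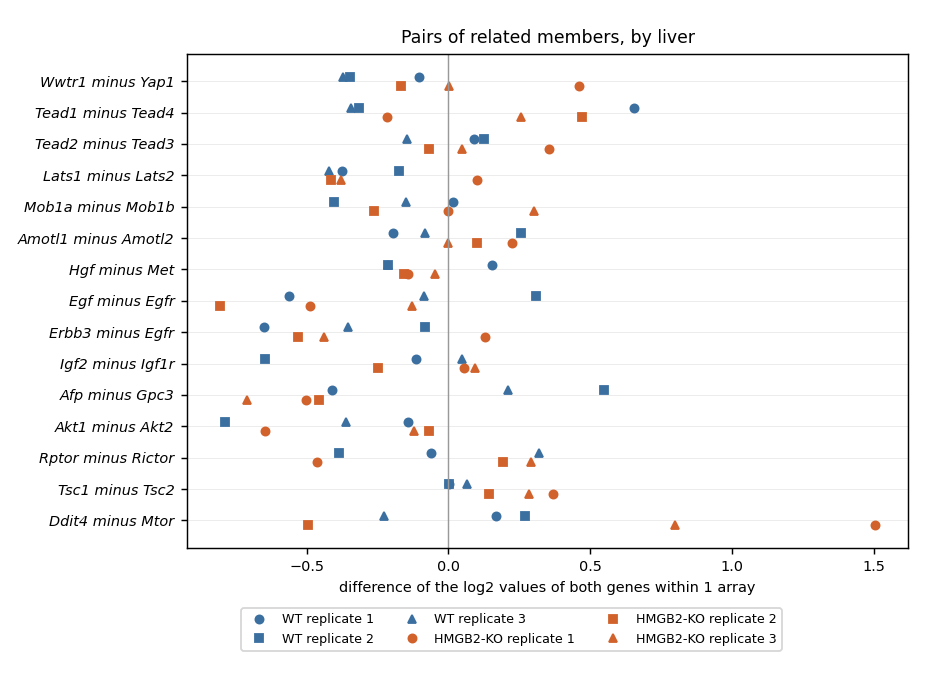
Difference between the log2 values of both genes of a pair within 1 array, for 15 of the 16 pairs compared; blue is WT, orange HMGB2-KO, and the shape gives the replicate. The colours separate for Tsc1 minus Tsc2 and for Afp minus Gpc3; the pair of Tgfa and Hbegf, with Hbegf at -3.95 on 1 array, is not drawn.

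Livers can also be told apart by the animal numbers in the labels, 31 and 32 for the livers numbered 3 and 38 to 41 for the rest, and the labels do not say what the numbers stand for. With genotype as a term in limma, 0.041% of all genes passed the adjusted threshold between animals 31 and 32 and the other 4, and no member did. An unadjusted p under 0.05 was found for 4 of 39 members, or 10.3%, against 8.49% of all genes. Of these 1 was higher in animals 31 and 32 and 3 were lower, where 3.9% of all genes were called higher and 4.59% lower. Ajuba was higher in animals 31 and 32 by 0.94 (SE 0.16, limma adjusted p = 0.137), and ranked 88 by p among all genes. Lower there were Erbb3 by -0.50 (SE 0.16), Rictor by -0.44 (SE 0.14) and Egfr by -0.39 (SE 0.16), with adjusted p in limma of 0.468, 0.487 and 0.583. Between genotypes the same 4 genes had differences from -0.10 to 0.10.

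Erbb3 shows the pattern in single livers, at -0.35 and -0.38 in animals 31 and 32 and between -0.04 and 0.32 in the other 4. Separation without overlap was seen for 3 members upward (Ajuba, Lats2 and Igf2) and 4 downward (Erbb3, Rictor, Egfr and Mob1b), or 7.69% and 10.3%, against 10.4% and 9.32% of all genes. These shares are near the background of the array.

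**Figure D5:**
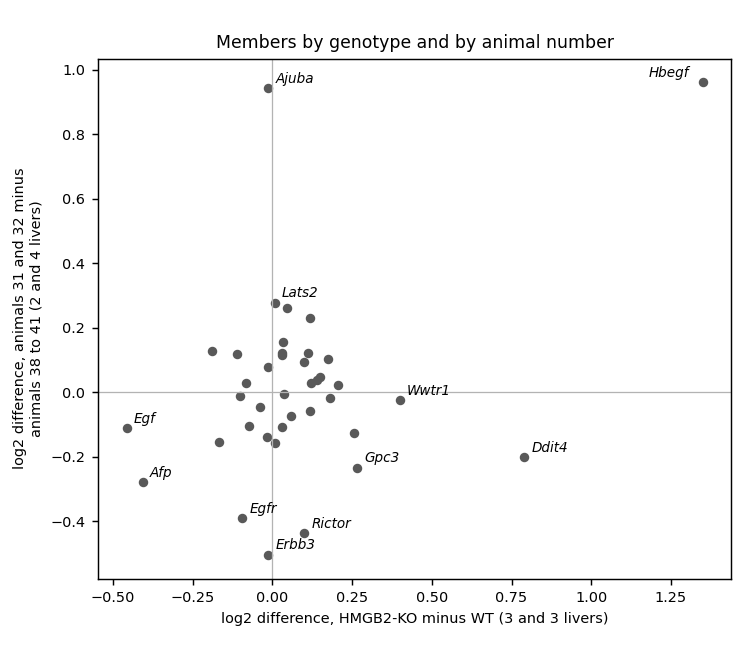
Each point is 1 of the 39 measured members, with its log2 difference between genotypes on the horizontal axis and between animals 31 and 32 and animals 38 to 41 on the vertical axis. Ajuba, Erbb3, Rictor and Egfr lie far from 0 only on the vertical axis, Wwtr1, Ddit4 and Egf mainly on the horizontal one, and the place of Hbegf comes from 1 array.

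Whole liver holds several cell types, and fewer cells of a type cannot be told apart from less RNA per cell. Hepatocyte markers had a median of 0.07 (13 of 14 higher), or -0.05 as deposited and 0.00 without WT replicate 2. Stellate markers, which bear on Hgf, had a median of 0.04 with 7 of 11 higher, or -0.08 as deposited, and by liver 0.08, 0.07 and 0.13 in WT and 0.21, -0.03 and 0.04 in HMGB2-KO. Sinusoidal endothelial markers had a median of 0.06 with 6 of 10 higher and 4 lower, or a median of -0.06 as deposited. The 2 with an unadjusted limma p under 0.05 were Pecam1 at 0.55 (SE 0.14) and Oit3 at 0.37 (SE 0.15). Of all genes 3.68% had such a p, and 1.06% had it and were higher. Each had an adjusted p of 0.994. The genotypes did not overlap for these 2, both higher, as for 9.67% of all genes in either direction and 4.32% upward. By liver the median of all 10 markers was 0.81, 0.84 and 0.73 in WT and 0.72, 0.69 and 0.97 in HMGB2-KO. HMGB2-KO replicates 1 and 2 thus lay below every WT liver. Without HMGB2-KO replicate 3 the median difference was -0.02. Macrophage markers, which bear on Axl, were higher in 11 of 11, with a median of 0.20, or 0.08 as deposited. By liver their median was 0.26, 0.15 and 0.40 in WT and 0.51, 0.41 and 0.60 in HMGB2-KO. Cholangiocyte markers had a median of -0.04 (2 of 6 higher) and lymphocyte markers one of 0.05 (4 of 7 higher), or -0.16 and -0.07 as deposited. With 1 liver left out these medians ran from -0.11 to 0.02 and from -0.04 to 0.12. Their part in the members' differences was not tested.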

How the data were processed

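The deposited table has 1 column for each of the 6 arrays and 22206 rows of log-scale values, read as log2 because no source used here names the base. The authors' probe summary and normalization are likewise not given. A pair of livers mirrored each other around 0 (within 2e-06) in 24.2% of rows, so values are relative to a row baseline, whose definition was not found. Each array was centred on its median. Rows were named through the platform annotation (19572 with 1 symbol, 2634 unnamed), keeping the row with the highest mean for 55 genes with several. The genotype comparison used limma 3.58.1 under R 4.3.3 (lmFit and eBayes, two-sided, Benjamini-Hochberg adjustment over 19505 genes at 0.05). The same fit was also run on simulated data with known changes. Single values had two-sided exact permutation tests over livers. Members and lists were chosen with earlier results of these data known. The naming rule gave values in every liver for members with p under 0.1 or without overlap, and, whatever their values, for Yap1, Wwtr1, Hgf, Met, Egf, Egfr, Igf1r, Igf2, Afp, Gpc3, Mtor, Rptor, Rictor, Akt1 and Ankrd1. From wider lists it named genes with p under 0.05, Zhx2 and Zbtb20, but Zbtb20 was not among the genes tested. Liver values of Sav1, Axl, Ajuba, Hbegf, Erbb3 and the genes of separating pairs, and the promoters printed, were chosen after their values were seen. The labels give each liver an animal number but no litter or batch, and the small number of arrays limits the precision. Promoter windows are RefSeq's, build GRCm38.p6.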

Additional observations from a re-analysis of the deposited data

How the results depend on the processing

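With 3 livers per genotype and a log2 scale without absolute level, small shifts could not be separated from 0, and signal over background is unknown. No gene passed the adjusted threshold between genotypes under any alternative run, while an unadjusted p under 0.05 was found for 631 to 946 genes, and for 601 to 945 with 1 liver left out. As deposited, without centring, 12 members were higher, 0 had p under 0.05 and the members' median was -0.08. List medians were then -0.09 for further Hippo genes, -0.07 for EGF, HGF and IGF genes, -0.09 for PI3K and mTOR genes, 0.06 for fetal genes, -0.16 for cholangiocyte, -0.05 for hepatocyte, 0.08 for macrophage, -0.07 for lymphocyte and -0.08 for stellate markers. Signs turned as deposited for Yap1 (-0.09), Igf2 (-0.08), Akt1 (-0.01) and Rictor (-0.02) among the members named whatever their values. This came by construction of the scale, and signs of other members turned too. Within animals 38 to 41, 2 members had p under 0.05, against 3.78% of all genes, and 8 (20.5%) did not overlap, against 32.8% of all genes. There Yap1 was at -0.04, the pair Tead1 minus Tead4 at -0.04, the EGF, HGF and IGF list at 0.07 and the fetal list at 0.11. With the replicate number as a block, 858 genes and 2 members had p under 0.05 and 0 genes passed adjustment. The labels give only a shared number, deviations of same-numbered livers correlated at 0.04, 0.13 and 0.29, and HMGB2-KO replicate 1 correlated best with WT replicate 2, at 0.1. With an animal term, or with array weights (Yap1 then 0.00), 0 members had p under 0.05. The cause of these shifts was not tested. With 1 liver left out, the members gave 0 (without WT replicate 2) to 3 (without WT replicate 1) with p under 0.05, 3 (7.69%, without WT replicate 2) to 10 (25.6%, without WT replicate 1) without overlap and a median of 0.02 to 0.10. In the same settings 17.9% to 21.8% of all genes did not overlap, and 3.08% to 4.84% had p under 0.05. Medians ranged from 0.01 to 0.07 for Hippo, 0.02 to 0.08 for EGF, HGF and IGF, -0.03 to 0.08 for PI3K and mTOR and -0.07 to 0.09 for stellate genes. Of 39 members, 17 (43.6%) kept their sign with any 1 liver left out, as deposited, after quantile normalization and within animals 38 to 41. Among the members named whatever their values, signs turned for Yap1 (-0.05 to 0.18), Ankrd1 (-0.14 to 0.01) and Igf2 (-0.02 to 0.11). They also turned for Egfr (-0.26 to 0.07), Akt1 (-0.08 to 0.26) and Rictor (-0.06 to 0.28). Among pairs they turned for Tead1 minus Tead4 (0.00 to 0.50), Tead2 minus Tead3 (-0.03 to 0.18), Lats1 minus Lats2 (-0.07 to 0.18), Hgf minus Met (-0.09 to 0.10), Erbb3 minus Egfr (-0.12 to 0.22), Tgfa minus Hbegf (-2.23 to 0.14), Igf2 minus Igf1r (0.00 to 0.35), Akt1 minus Akt2 (-0.03 to 0.34) and Rptor minus Rictor (-0.12 to 0.28). Between animals 31 and 32 and the rest, 16 genes passed adjustment without the genotype term and 1 (without WT replicate 3) to 12 (without WT replicate 1) with a liver left out, and 1 to 4 members had p under 0.05. No sign of the members named whatever their values or of Ddit4 turned under quantile normalization, the mean of rows or no moderation. The same held for trend and robust fitting and for the removal of olfactory genes. Erbb3 and Mob1b turned after quantile normalization, each to 0.03.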
